A study of Mus musculus with 6 samples.

Results

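Hearts transplanted across a donor-recipient difference were set beside a heart transplanted without one, and a gene was counted only where all 5 allografts lay on the same side of the syngraft. All 6 of the 6 arrays entered: 5 allografts and 1 syngraft, chosen by their sample titles. The ABH4 allograft came from mice given 4-amino tetrahydrobiopterin, an analog that antagonises the natural cofactor, at 50 mg/kg every 8 h. The BH4 allograft came from mice given tetrahydrobiopterin, the cofactor of nitric oxide synthases, at 50 mg/kg every 8 h. For the CsA allograft the drug was cyclosporin A, a calcineurin blocker, at 15 mg/kg every 24 h, and for the NIL allograft it was N-imino ethyl-L-lysine, an inhibitor of inducible nitric oxide synthase, at 5 mg/kg every 8 h. The untreated allograft and the untreated syngeneic heart (the syngraft) completed the set. Total RNA was hybridised to 1 oligonucleotide array per group, which gave a signal intensity for 12393 genes.

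The 5 allografts are 5 different conditions and not replicates, so each value is given as it stands or as a range, with no mean and no test. Each gene is described by 5 log2 differences, allograft minus syngraft. Of these, the nearest is the one closest to 0, and the spread is the highest minus the lowest. The spread mixes treatment with graft-to-graft variation and serves as a yardstick, not as an error. It also says nothing of variation between syngrafts, because the 5 differences share 1 syngraft array and are not independent. The number of arrays limits the precision of every value. The labels do not give the mouse strains, the day of removal or any pooling of grafts. A difference between strains, including a sequence difference under a probe, therefore cannot be told apart from alloimmunity. Fewer cells of a type and less RNA per cell cannot be told apart in these bulk samples either.

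The arrays were alike in overall signal. The median deposited signal was 77.7 to 88.5 per array, and between 9122 and 9534 genes were above the floor of 34.8, the signal below which values were not distinguished. RNA integrity was alike too: 3' over 5' probe sets of Actb gave ratios of 1.04 to 1.13, and those of Gapdh 0.788 to 0.876. Myh6, the adult cardiac myosin of the mouse, had signals of 3161 with ABH4, 3236 with BH4, 4339 with CsA, 3363 with NIL and 3578 in the untreated allograft, against 3340.5 in the syngraft, so cardiac muscle was present on all 6 arrays. The array labelled BH4 stood apart: it carried salivary gland transcripts, and the secretory gene Bpifa2 had a signal of 5806 with BH4 and 56.2 with NIL and was at the floor with ABH4, with CsA and in the untreated allograft, against 40.7 in the syngraft. The summed signal of 16 epithelial, mesothelial and glandular genes was 489 with ABH4, 11232 with BH4, 726 with CsA, 950.2 with NIL and 448 in the untreated allograft, against 434 in the syngraft. Whether other tissue came with that graft or samples were exchanged was not tested, and an exchange would change what every value given for BH4 stands for. Counts of genes are therefore also given without the BH4 allograft.

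A heart that meets alloimmunity is entered by T cells, NK cells and macrophages. Interferon-gamma released by activated lymphocytes acts on GAS elements in the promoters of target genes, while type I interferons, and factors of the IRF family, act on interferon-stimulated response elements (ISRE). Their target genes include antiviral GTPases, chemokines that draw in T cells, the machinery that presents peptides on MHC molecules, and feedback inhibitors. Calcineurin, the target of cyclosporin A, is needed for T cell receptor signalling to turn on cytokine genes.

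Promoter sequences of 4 genes higher in all 5 allografts are shown because each window carries the letters of an ISRE-like element, and that of Irgm2 those of a GAS element too. Each window runs 5′ to 3′ on the gene's strand from 250 bases before to 50 bases after the start, as given by RefSeq on GRCm38.p6. Capitals mark matches on either strand to an ISRE-like motif, GAAA and GAAA with any 2 bases between them, or to the GAS motif, TTCNNNGAA. The motifs may overlap. The 4 were picked after their values were seen. The Cxcl10 window lies at chr5:92348840-92349139 on the minus strand, the Gbp2 window at chr3:142620413-142620712, the Irgm2 window at chr11:58214727-58215026 and the Gbp3 window at chr3:142559794-142560093, these last 3 on the plus strand.
Cxcl10: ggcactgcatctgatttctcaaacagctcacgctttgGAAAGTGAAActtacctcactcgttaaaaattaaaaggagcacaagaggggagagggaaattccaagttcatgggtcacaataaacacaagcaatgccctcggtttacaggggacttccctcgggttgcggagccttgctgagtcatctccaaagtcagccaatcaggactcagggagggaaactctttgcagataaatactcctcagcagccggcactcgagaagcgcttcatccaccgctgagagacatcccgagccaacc
Gbp2: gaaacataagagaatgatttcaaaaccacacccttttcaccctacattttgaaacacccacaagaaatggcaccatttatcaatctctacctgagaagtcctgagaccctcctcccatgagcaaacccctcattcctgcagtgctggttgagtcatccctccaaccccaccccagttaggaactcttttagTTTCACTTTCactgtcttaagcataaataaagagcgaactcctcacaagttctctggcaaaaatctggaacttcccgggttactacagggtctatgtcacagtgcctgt
Irgm2: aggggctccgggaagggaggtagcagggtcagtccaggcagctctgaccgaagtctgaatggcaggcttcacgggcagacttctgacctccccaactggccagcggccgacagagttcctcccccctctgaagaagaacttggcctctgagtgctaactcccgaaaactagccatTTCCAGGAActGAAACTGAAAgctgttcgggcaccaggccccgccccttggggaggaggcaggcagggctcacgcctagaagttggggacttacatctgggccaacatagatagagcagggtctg
Gbp3: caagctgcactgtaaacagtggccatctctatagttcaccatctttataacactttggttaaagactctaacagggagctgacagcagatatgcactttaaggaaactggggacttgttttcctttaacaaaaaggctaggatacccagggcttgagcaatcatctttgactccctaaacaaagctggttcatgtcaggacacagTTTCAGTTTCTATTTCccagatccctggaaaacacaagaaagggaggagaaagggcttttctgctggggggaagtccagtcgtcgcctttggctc
In Cxcl10 the ISRE-like match starts 213 bases before the start site and in Gbp2 59 bases before it. Irgm2 has a GAS match followed by an ISRE-like match 64 bases before the start. In Gbp3 a pair of ISRE-like matches, 45 and 39 bases before the start, overlap each other.

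RefSeq windows were matched by symbol for 119 of the 164 genes that were at least 2-fold higher in all 5 allografts. An ISRE-like match lay in 27 of their 149 windows (18.1%), against 394 of the 12566 windows of all measured genes, or 3.14%, and 1131 of the 32851 windows of the whole table, or 3.44%. The GAS letters lay in 18 of the 149 windows (12.1%), against 6.97% of windows of measured genes and 8.30% of all windows. Both motifs lay in 5 of the 149 windows. Among the windows of the genes at least 2-fold lower in all 5, each motif lay in 1 of 44 (2.27%). Windows with an ISRE-like match included those of Socs1, Ifit1, Ifit3, Oas3, Trim34a and Erap1, whereas those of Gzmb, Ifng, Irf1, Irf8, Icam1 and Psmb8 held a GAS match. A match describes the letters only, and a window without one says nothing of the factor.

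Of the 12393 genes, 164 (1.32%) were at least 2-fold higher in all 5 allografts than in the syngraft and 50 (0.403%) were at least 2-fold lower. At 3-fold the counts were 63 higher and 8 lower. At 1.5-fold, the threshold used for gene lists below, 450 (3.63%) were higher and 269 (2.17%) lower. These counts depend on the floor: with the 10th percentile in place of the 30th, 320 were at least 2-fold higher and 166 lower, with the 50th percentile 27 were lower, and among genes above the floor on every array 20 were lower. By any amount, 2516 genes (20.3%) lay above the syngraft in all 5 and 2654 (21.4%) below it, so groups that do not overlap are common beside a single syngraft. Without the BH4 allograft 168 were at least 2-fold higher and 59 lower. Without the CsA allograft 1008 (8.13%) were at least 1.5-fold higher in the other 4 and 634 (5.12%) lower, and counts without CsA below are set beside these shares. The genes nearest the threshold on its higher side had a smallest difference of 1.00442 inside it and 0.996554 outside, and on the lower side -1.00579 inside and -0.99694 outside, on the log2 scale.

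Single allografts had more genes past 2-fold than the count shared by all 5. With ABH4 876 genes (7.07%) were higher and 568 (4.58%) lower than in the syngraft, and with BH4 762 (6.15%) were higher and 434 (3.5%) lower. With CsA 282 (2.28%) were higher and 176 (1.42%) lower. With NIL the counts were 737 (5.95%) and 552 (4.45%), and in the untreated allograft 852 (6.87%) and 596 (4.81%). The CsA allograft had the fewest in both directions, so it set the limit of most shared calls. Leaving it out gave 461 genes higher and 210 lower in the other 4 allografts, whereas leaving out any other allograft gave 166 to 175 higher and 52 to 59 lower.

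For the 164 higher genes the median of the nearest difference was 1.37, that of the farthest 2.60 and that of the spread 0.99. Over the 8094 genes above the floor on all 6 arrays the median spread was 0.57. In 123 of the 164 genes (0.992% of all genes) the nearest difference was larger than the spread of the 5 allografts. CsA was the allograft nearest to the syngraft in 120 of the 164, NIL in 26, the untreated allograft in 7, BH4 in 6 and ABH4 in 5. Farthest from it were the untreated allograft in 64, ABH4 in 42, BH4 in 38, NIL in 15 and CsA in 5. The median log2 differences of the 164 genes were 2.42 with ABH4, 2.34 with BH4, 1.55 with CsA, 2.15 with NIL and 2.39 in the untreated allograft.

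The 50 lower genes were closer together. Their median nearest difference was -1.23, the median farthest difference -1.76 and the median spread 0.54. In 44 of them (0.355% of all genes) the nearest difference exceeded the spread. However, 30 of the 50 were at the floor in at least 1 allograft, and 9 in all 5, which shortens the spread. CsA was nearest to the syngraft in 22 of the 41 lower genes without a tie, and NIL was farthest in 10 of the 26 without a tie at that end. Of the 164 higher genes, 39 were at the floor in the syngraft, so their folds are lower bounds, written "at least". Another probe set existed for 60 of the higher genes: in 21 one was also at least 2-fold higher in all 5, in 18 one had the same sign under 2-fold, and in 4 (Bola2, Ggct, H2-D1 and Samhd1, named after their values were seen) one lay below the syngraft in all 5. Of 22 lower genes with another probe set, 7 had one at least 2-fold lower as well.

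**Figure D1:**
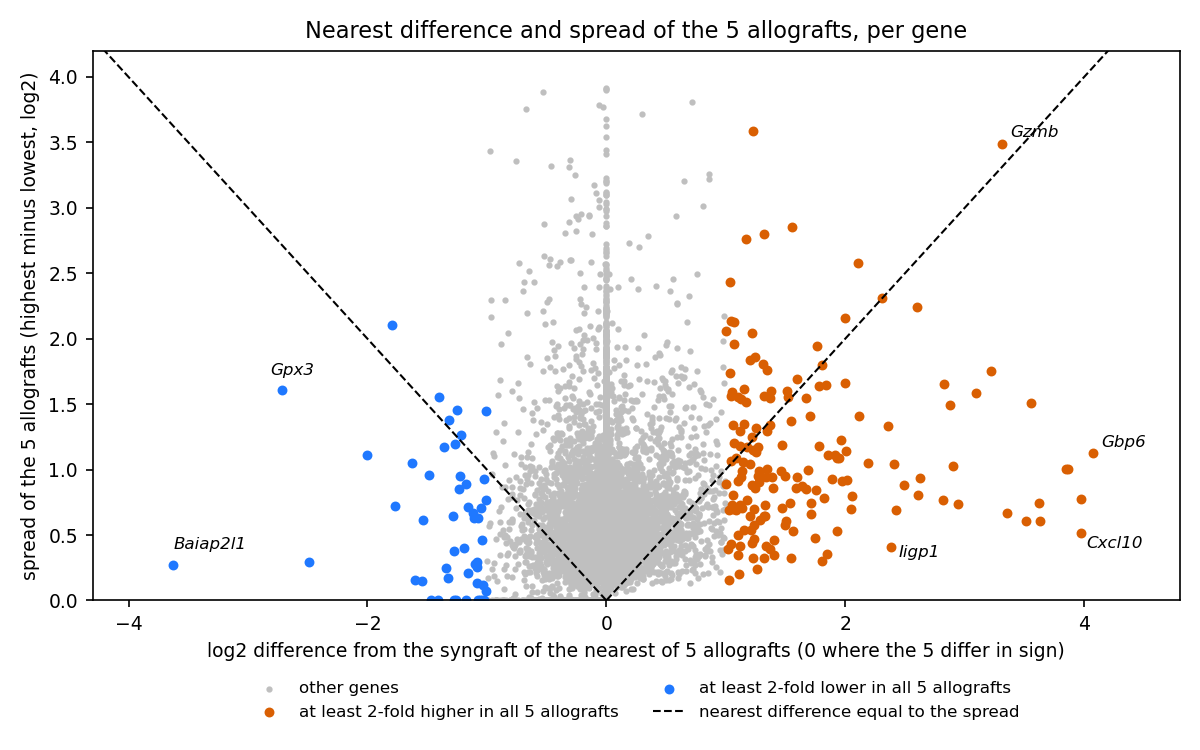
Each point is 1 of 12393 genes, plotted by the log2 difference from the syngraft of the nearest of the 5 allografts (0 where the 5 differ in sign) and by the spread of the 5 on the log2 scale. The coloured points are the 164 genes at least 2-fold higher and the 50 at least 2-fold lower in all 5; below the dashed lines the nearest difference exceeds the spread, as it does for Cxcl10 and Baiap2l1, while Gzmb lies just above the line.

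The interferon-induced GTPases, cell-autonomous defence proteins of the guanylate-binding (GBP) and immunity-related (IRG) families, were the gene list furthest above the syngraft. All 10 measured members were at least 2-fold higher in all 5 allografts, against 1.32% of all genes. The signals of Gbp6 were 2934 with ABH4, 3104 with BH4, 1537 with CsA, 2735 with NIL and 3352 in the untreated allograft, against 91.4 in the syngraft, a difference of 16.8-fold to 36.7-fold. Gbp2 had 4804 with ABH4, 5503 with BH4, 2748 with CsA, 4451 with NIL and 5257 in the untreated allograft, against 191 in the syngraft. In both genes the CsA value was the lowest of the 5 allografts and no allograft came near the syngraft. The folds were 14.4-fold to 28.8-fold for Gbp2, 7.08-fold to 22.2-fold for Gbp3 and at least 6.07-fold to at least 28.8-fold for Gbp8, whose syngraft signal was at the floor.

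Among the IRG members, Irgm2, a regulator of the family, had signals of 2167 with ABH4, 2325 with BH4, 974 with CsA, 1579 with NIL and 2744 in the untreated allograft, against 132 in the syngraft. That was 7.35-fold to 20.7-fold, with CsA again nearest. Ifi47 was 7.68-fold to 12.8-fold higher. Iigp1, an effector that attacks the vacuoles of intracellular pathogens, had 6804 with ABH4, 7892 with BH4, 5944 with CsA, 6778 with NIL and 7728 in the untreated allograft, against 1142 in the syngraft, and its 5 allografts differed by a spread of only 0.41 while the nearest stood 2.38 above the syngraft. Median log2 differences of the 10 GTPases were 3.80 with ABH4, 3.91 with BH4, 2.82 with CsA, 3.56 with NIL and 3.98 in the untreated allograft. Over all 12393 genes each of these medians was 0.00.

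The ligands of CXCR3, a chemokine receptor of activated T cells, were also far above the syngraft. Cxcl9 had signals of 4265 with ABH4, 3928 with BH4, 2498 with CsA, 3712 with NIL and 3938 in the untreated allograft, against 159 in the syngraft, or 15.7-fold to 26.8-fold higher. Cxcl10 had 1749 with ABH4, 1488 with BH4, 1284 with CsA, 1222 with NIL and 1442 in the untreated allograft, against 77.9 in the syngraft, or 15.7-fold to 22.5-fold higher with a spread of 0.52, and here NIL, not CsA, was the lowest. Cxcl11 had 1017 with ABH4, 506 with BH4, 545 with CsA, 693 with NIL and 924 in the untreated allograft, against the floor in the syngraft. Its difference was at least 14.6-fold to at least 29.2-fold, with BH4 nearest. Their receptor Cxcr3 was at least 1.5-fold higher in all 5 as well.

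Of 27 chemokine ligands measured, 10 were at least 1.5-fold higher in all 5 and 2 lower (8 and 1 at 2-fold). Over all genes the shares were 3.63% and 2.17% (1.32% and 0.403% at 2-fold). The monocyte attractant Ccl7 had signals of 819 with ABH4, 649 with BH4, 521 with CsA, 471 with NIL and 606 in the untreated allograft, against 113 in the syngraft. This made it 4.15-fold to 7.22-fold higher, beside Ccl2 and Ccl12, which act on the same monocyte receptor. Cxcl14, a homeostatic chemokine of epithelia and stroma, lay on the other side, with signals of 96.3 with ABH4, 146 with BH4, 143 with CsA, 66.9 with NIL and 53.4 in the untreated allograft, against 347 in the syngraft, or 2.37-fold to 6.50-fold lower. Of 16 chemokine receptors, 2 were at least 1.5-fold higher in all 5 (Cxcr3 and Ccrl2) and 0 lower, counts too small to set apart from those shares.

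**Figure D2:**
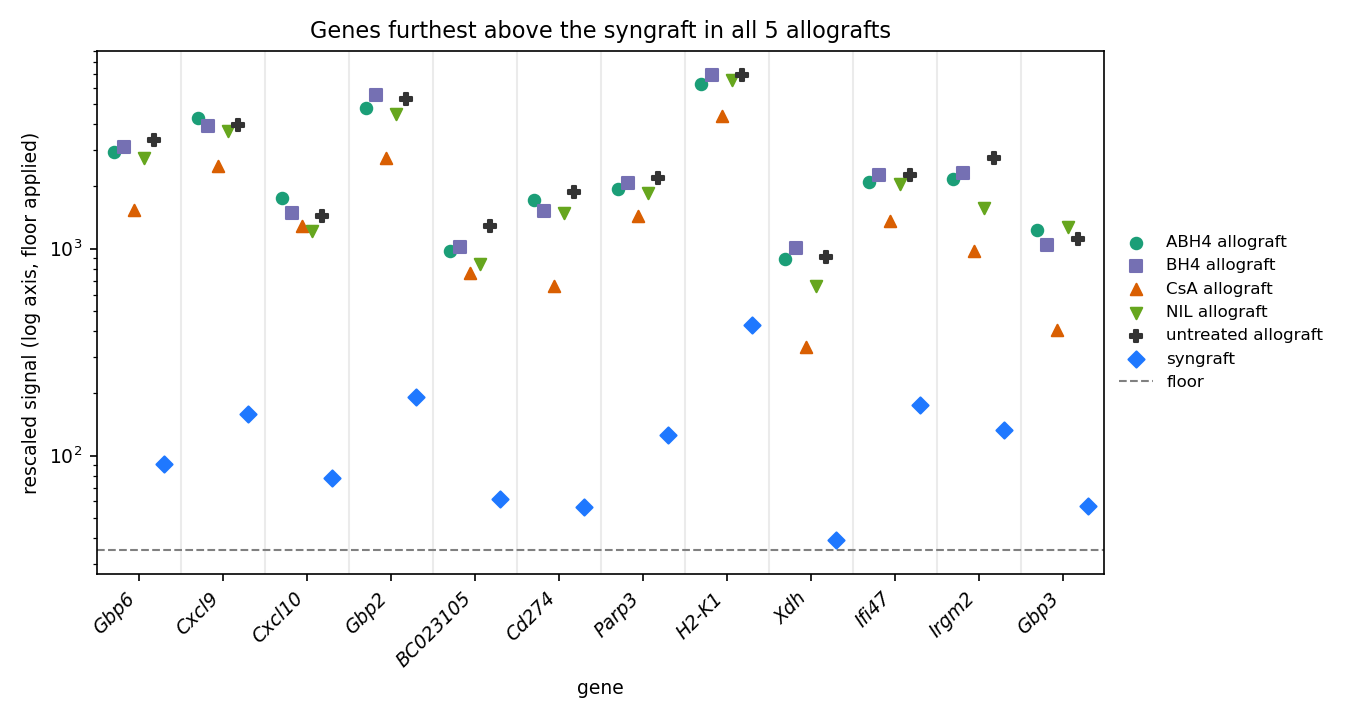
Rescaled signal on a log axis for the 12 genes with the largest nearest difference among genes above the floor on all 6 arrays, 1 symbol per array, with the 5 allografts left of the syngraft. In all 12 genes every allograft lies above the syngraft, and CsA is the lowest allograft in 11 of them, Cxcl10 being the exception.

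All 16 measured regulators and enzymes that interferon-gamma induces were at least 1.5-fold higher in all 5 allografts, against 3.63% of all genes. Cd274, the inhibitory ligand PD-L1, had signals of 1723 with ABH4, 1512 with BH4, 663 with CsA, 1479 with NIL and 1882 in the untreated allograft, against 56.4 in the syngraft, a difference of 11.8-fold to 33.4-fold. Socs1, the feedback inhibitor of JAK kinases, had 410.1 with ABH4, 409 with BH4, 214 with CsA, 252 with NIL and 403 in the untreated allograft, against the floor in the syngraft. The transcription factors Irf1 and Irf8 had nearest differences of 1.49 and 1.47, so transcription factors and an inhibitor of the response were higher together. Ubd, a ubiquitin-like protein, was 4.94-fold to 24.5-fold higher.

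Metabolic enzymes of the same list were among the widest differences. Xdh, xanthine dehydrogenase, had signals of 888 with ABH4, 1002 with BH4, 334 with CsA, 657 with NIL and 908 in the untreated allograft, against 39.0 in the syngraft, or 8.56-fold to 25.7-fold higher. Acod1, which makes itaconate in activated macrophages, had 892 with ABH4, 749.7 with BH4, 149 with CsA, 657 with NIL and 825 in the untreated allograft, against the floor in the syngraft, or at least 4.30-fold to at least 25.7-fold. For both genes CsA lay under the other 4 allografts and above the syngraft. The tryptophan enzyme Ido1 and the tryptophanyl-tRNA synthetase Wars had nearest differences of 0.87 and 1.82. The list's medians were 2.51 with ABH4, 2.54 with BH4, 1.48 with CsA, 2.25 with NIL and 2.49 in the untreated allograft.

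The immunoproteasome, the proteasome form that trims peptides for MHC class I, was higher in all 4 measured members. Each was at least 1.5-fold higher in all 5 allografts, against 3.63% of all genes. Psmb9 had signals of 2295 with ABH4, 2110.1 with BH4, 747 with CsA, 2317 with NIL and 2602 in the untreated allograft, against 214 in the syngraft. It was 3.49-fold to 12.2-fold higher, Psmb10 2.87-fold to 8.41-fold and Psmb8 2.37-fold to 8.59-fold. The spread of these 3 subunits was 1.80, 1.55 and 1.86, so the nearest difference was about as large as the spread for Psmb9 and Psmb10 and smaller for Psmb8. Of 14 constitutive proteasome subunits 0 were at least 1.5-fold higher in all 5. Their medians were 0.77 with ABH4, 0.79 with BH4, 0.24 with CsA, 0.62 with NIL and 0.89 in the untreated allograft, and without CsA 8 of the 14 were past 1.5-fold, against 8.13% of all genes.

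Peptide transport and MHC class I were higher in 6 of 12 measured genes at 1.5-fold, and in 10 of 12 without CsA, against 3.63% and 8.13% of all genes. H2-K1, a classical class I heavy chain, had signals of 6215 with ABH4, 6931 with BH4, 4377 with CsA, 6524 with NIL and 6938 in the untreated allograft, against 429 in the syngraft, or 10.2-fold to 16.2-fold higher. H2-D1, the other classical chain, was 12.3-fold to 18.8-fold higher, but its other probe set gave 61.5 with ABH4, 38.2 with BH4, 44.5 with CsA, 58.1 with NIL and 37.5 in the untreated allograft, against 71.1 in the syngraft. Both genes differ in sequence between mouse strains, so the haplotype read by each probe set cannot be told apart from the level here. The peptide transporter Tap1 had 1436 with ABH4, 1530.3 with BH4, 744 with CsA, 1344 with NIL and 1504 in the untreated allograft, against 140.0 in the syngraft, or 5.31-fold to 10.9-fold higher, and the loading factor Tapbpl was 3.18-fold to 9.27-fold higher. With the mean over probe sets the nearest difference was 0.60 for Tap1, in place of 2.41, and 0.88 for Tapbpl, in place of 1.67, both short of 2-fold. The class I light chain B2m was not past 1.5-fold in all 5.

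MHC class II, which presents to CD4 T cells, passed 1.5-fold in all 5 in 2 of 8 genes, and in 8 of 8 without CsA. Over all genes the shares were 3.63% and 8.13%. H2-DMa, a peptide exchange factor of class II, had signals of 696 with ABH4, 656 with BH4, 247 with CsA, 824 with NIL and 808 in the untreated allograft, against 120.4 in the syngraft. The CsA value lay between the syngraft and the other 4 allografts, and the class II median was 0.52 with CsA and 1.22 to 1.93 in the other 4. Of all 8 genes, H2-DMa and H2-Oa were the pair past 1.5-fold with CsA too.

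Type I interferon induced genes, mostly antiviral effectors, were at least 1.5-fold higher in 16 of 21 and at least 2-fold in 10. Over all genes the shares were 3.63% and 1.32%. Ifit2, which binds viral RNA, had signals of 727 with ABH4, 686 with BH4, 453 with CsA, 551 with NIL and 833 in the untreated allograft, against 80.7 in the syngraft. Ifit3 had 1696 with ABH4, 1983 with BH4, 1195 with CsA, 1293 with NIL and 2471 in the untreated allograft, against 261 in the syngraft. NIL and CsA were the lower allografts for this pair, and both stood above the syngraft. The folds were 5.61-fold to 10.3-fold for Ifit2, 4.58-fold to 9.46-fold for Ifit3, 3.61-fold to 7.82-fold for Ifit1 and 4.32-fold to 11.5-fold for Bst2, which tethers budding virus to the cell. Trim34a, of an antiviral TRIM family, had 242 with ABH4, 236 with BH4, 241 with CsA, 187 with NIL and 301 in the untreated allograft, against the floor in the syngraft, so NIL, not CsA, was the lowest allograft there.

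Cytotoxic and T cell transcripts were higher in all 5 allografts for few genes, since the CsA allograft set the limit. Gzmb, the granule protease of cytotoxic lymphocytes, had signals of 3703 with ABH4, 2973 with BH4, 346 with CsA, 3358 with NIL and 3888 in the untreated allograft, against the floor in the syngraft. Its difference of at least 9.94-fold to at least 112-fold had a spread of 3.49, larger than the nearest difference of 3.31. Nkg7, a granule protein, had 932 with ABH4, 565 with BH4, 85.4 with CsA, 1026 with NIL and 786 in the untreated allograft, against 36.4 in the syngraft, and Ccl5 had 2145 with ABH4, 1197 with BH4, 317 with CsA, 1907 with NIL and 1616 in the untreated allograft, against 141 in the syngraft. In these 3 genes the CsA allograft lay between the syngraft and the other 4 allografts, and nearer to the syngraft for Nkg7 and Ccl5.

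Of 26 cytotoxic and NK genes 8 were at least 1.5-fold higher in all 5 and 0 lower, or 15 without CsA, against 3.63% of all genes in all 5 and 8.13% without CsA. Their summed signal was 13756 with ABH4, 9829.6 with BH4, 2769.6 with CsA, 12824 with NIL and 13106 in the untreated allograft, against 1549 in the syngraft. T cell genes passed in 3 of 18 (Cd3g, Cd8a and Lcp2), or 13 of 18 without CsA (8.13% of all genes), with summed signals of 4679 with ABH4, 3587 with BH4, 1196 with CsA, 4700.4 with NIL and 4300.3 in the untreated allograft, against 1183 in the syngraft. The T cell sum with CsA was thus close to that of the syngraft. Checkpoint and costimulation genes passed in 3 of 19 (Cd274, the lymphocyte receptor Havcr2 and Cd40), or 11 of 19 without CsA (8.13% of all genes).

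Interferon-gamma itself, Ifng, had signals of 738 with ABH4, 400.0 with BH4, 102 with CsA, 484 with NIL and 586 in the untreated allograft, against the floor in the syngraft. That was at least 2.94-fold to at least 21.2-fold higher, again with CsA nearest. Interleukins and Ifng together had 5 of 29 genes at least 1.5-fold higher in all 5 and 0 lower, against 3.63% and 2.17% of all genes. Il15, a growth factor of NK and memory T cells, had 191 with ABH4, 133 with BH4, 151 with CsA, 126 with NIL and 138 in the untreated allograft, against 44.4 in the syngraft, with a spread of 0.60 and with CsA second highest. Il18bp and Il1rn, which block IL-18 and IL-1, were 4.00-fold to 17.9-fold and 3.25-fold to 8.64-fold higher. With the mean over probe sets the nearest difference of Il1rn was 0.94 in place of 1.70. Il1r1, the signalling IL-1 receptor, went the other way: it was at the floor in 4 allografts, 39.1 with CsA and 97.8 in the syngraft.

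Macrophage genes were at least 1.5-fold higher in all 5 in 6 of 30, and in 17 of 30 without CsA. Over all genes the shares were 3.63% and 8.13%. Lgals3, galectin-3, had signals of 2781 with ABH4, 3064 with BH4, 1944 with CsA, 2768 with NIL and 2741 in the untreated allograft, against 593 in the syngraft, or 3.28-fold to 5.17-fold higher. The Fc receptor Fcgr4 and the fungal glucan receptor Clec7a were 2.01-fold to 8.37-fold and 2.07-fold to 6.24-fold higher. Arg1, an arginase that activated macrophages make, had 1009 with ABH4, 1045 with BH4, 324 with CsA, 1094 with NIL and 864 in the untreated allograft, against the floor in the syngraft. All 5 allografts were therefore at least 9.32-fold to at least 31.5-fold higher. The defining markers Adgre1, Cd68 and Csf1r did not pass in all 5.

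Neutrophil genes gave 0 at least 1.5-fold higher and 2 lower of 13 in all 5, against 3.63% and 2.17% of all genes. Their summed signal was 2936 with ABH4, 3368 with BH4, 1263 with CsA, 2538 with NIL and 2826 in the untreated allograft, against 2480 in the syngraft. Only the CsA sum was thus below the syngraft, and the 2 genes described next do not stand for the list. S100a9, a calcium-binding protein of neutrophils, had signals of 229.8 with ABH4, 177 with BH4, 84.3 with CsA, 204 with NIL and 205 in the untreated allograft, against 462 in the syngraft. Mmp9, a gelatinase that neutrophils store, had 109 with ABH4, 97.9 with BH4, 135 with CsA, 66.2 with NIL and 59.8 in the untreated allograft, against 346 in the syngraft. Both genes were below the syngraft on every allograft array, S100a9 by 2.01-fold to 5.48-fold and Mmp9 by 2.57-fold to 5.78-fold. Dendritic cell genes passed in 0 of 11. In the B cell and plasma cell list 1 of 14 was higher and 1 lower. The dendritic cell and B cell counts are too small to set apart from the shares of all genes. Jchain, the joining chain of secreted immunoglobulin, had 1840.2 with ABH4, 473 with BH4, 1313 with CsA, 1649 with NIL and 534 in the untreated allograft, against 225 in the syngraft: its lowest allografts were BH4 and untreated, not CsA, and its nearest difference of 1.07 fell short of 2-fold without rescaling (0.90) and after quantile normalization (0.88).

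Adhesion molecules for leukocytes were at least 1.5-fold higher in all 5 in 6 of 20, against 3.63% of all genes. Icam1, the endothelial ligand of leukocyte integrins, had signals of 509 with ABH4, 515 with BH4, 443 with CsA, 554 with NIL and 479 in the untreated allograft, against 178 in the syngraft. With 2.49-fold to 3.11-fold and a spread of 0.32, it hardly varied among allografts, and CsA lay at 443. Vcam1 passed 1.5-fold too. Complement passed in 3 of 14, a small count beside the same share. It was led by the alternative pathway protease Cfb, whose signals were 1446 with ABH4, 991 with BH4, 268 with CsA, 1204 with NIL and 1261 in the untreated allograft, against 131 in the syngraft.

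Stress genes formed a further group. Gclm, a subunit of the enzyme that limits glutathione synthesis, had signals of 786 with ABH4, 1148 with BH4, 554 with CsA, 649 with NIL and 1194 in the untreated allograft, against 147 in the syngraft, or 3.77-fold to 8.13-fold higher. Srxn1, which repairs peroxiredoxins, was 2.27-fold to 5.12-fold higher, but its nearest difference of 1.18 was 0.07 with the mean over probe sets. With Hmox1, Txnrd1 and Mt2, 5 of 25 genes of NADPH oxidase and antioxidant defence were at least 1.5-fold higher in all 5, against 3.63% of all genes. Hspa1b, an inducible HSP70, had 680.1 with ABH4, 437 with BH4, 1168 with CsA, 396 with NIL and 756 in the untreated allograft, against 158 in the syngraft. It was one of the 5 higher genes for which CsA was the farthest allograft. Of 16 heat shock genes 3 passed 1.5-fold on the higher side, a small count beside the same share.

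**Figure D3:**
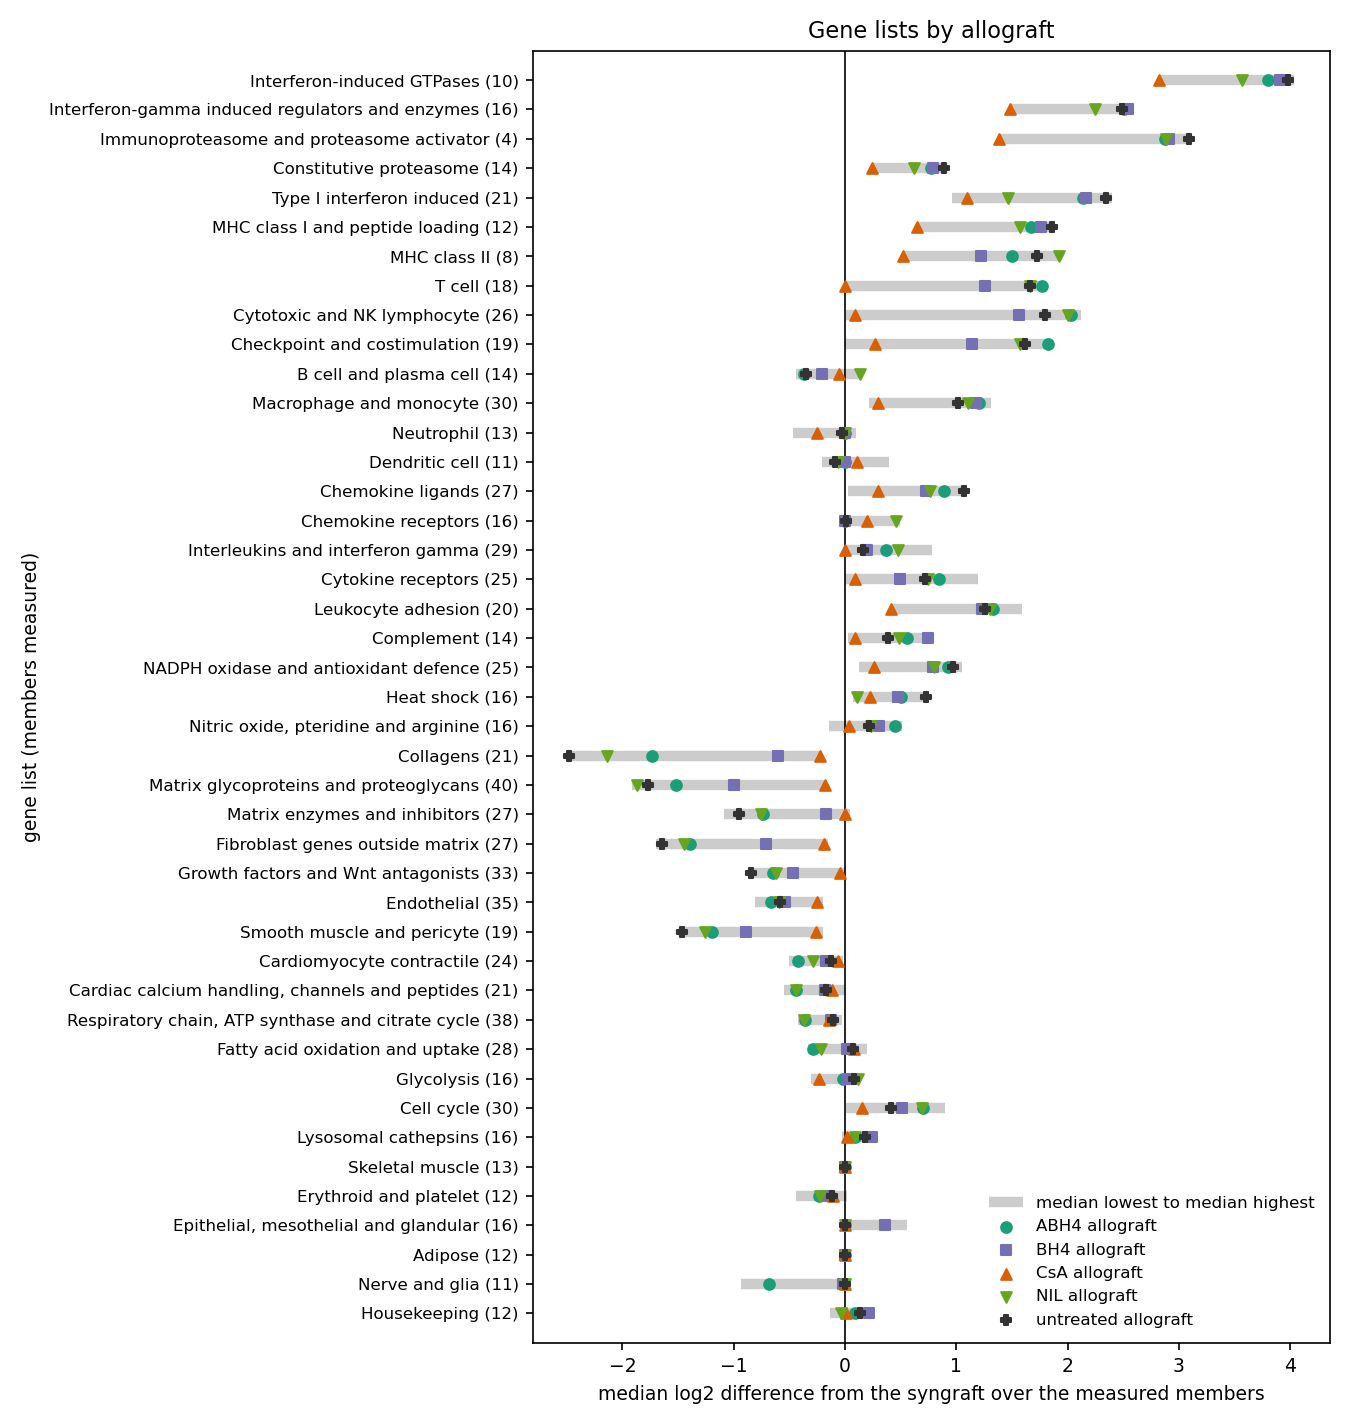
Median log2 difference from the syngraft over the measured members of 43 gene lists, 1 symbol per allograft, with the number of members in brackets. Grey bars run from the median of the lowest to the median of the highest of the 5 differences. The GTPases lie furthest right for all 5 allografts, collagens and matrix lie furthest left for the untreated, NIL and ABH4 allografts, and CsA is nearest to 0 in most long bars.

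Fewer genes were at least 2-fold below the syngraft in all 5 allografts, and the 12 with the largest nearest differences had varied roles. Baiap2l1, an adaptor that links membranes to actin, had signals of 123 with ABH4, 130.0 with BH4, 117 with CsA, 137 with NIL and 141 in the untreated allograft, against 1743 in the syngraft. The 5 allografts differed by a spread of 0.27, while the nearest stood -3.62 from the syngraft, or 12.3-fold to 14.9-fold lower. This was the largest nearest difference of any lower gene above the floor on all 6 arrays, and the 5 allografts almost coincided. Gabbr1, a subunit of the metabotropic GABA receptor, had 120.4 with ABH4, 117 with BH4, 129 with CsA, 119.9 with NIL and 120.2 in the untreated allograft, against 377 in the syngraft, with a spread of 0.15 and 2.91-fold to 3.22-fold lower. With the mean over its probe sets the nearest difference of Gabbr1 was -0.66 in place of -1.54. For both genes the difference rests on the single syngraft array.

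Gpx3, the secreted glutathione peroxidase of plasma, had signals of 411 with ABH4, 669 with BH4, 840.5 with CsA, 276 with NIL and 726 in the untreated allograft, against 5527 in the syngraft. The log2 differences ran from -2.72 with CsA to -4.32 with NIL, and it was the 1 gene of the antioxidant list on the lower side. Lims2, which joins integrins to actin at focal adhesions, had 134 with ABH4, 219 with BH4, 222 with CsA, 186 with NIL and 142 in the untreated allograft, against 755 in the syngraft. P4ha2, a collagen prolyl hydroxylase, had 191 with ABH4, 199 with BH4, 164 with CsA, 195 with NIL and 192 in the untreated allograft, against 427 in the syngraft, so all 5 allografts lay within a narrow band below the syngraft.

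A few muscle genes were lower in all 5 allografts. Acta1, the skeletal alpha-actin that the heart also makes, had signals of 1298 with ABH4, 1612 with BH4, 1986 with CsA, 1306 with NIL and 1389.8 in the untreated allograft, against 5742 in the syngraft, or 2.89-fold to 4.42-fold lower. Myl1, a myosin light chain of fast muscle, had 596 with ABH4, 812 with BH4, 312 with CsA, 469.7 with NIL and 662 in the untreated allograft, against 2024 in the syngraft, with CsA the lowest. Sgca, a sarcoglycan of the dystrophin-associated complex, had 432 with ABH4, 435 with BH4, 554 with CsA, 426 with NIL and 507 in the untreated allograft, against 1344 in the syngraft. The 3 were named among genes below the syngraft in all 5, so that their allografts lie under it follows from that choice. Of 24 cardiomyocyte contractile genes 0 were at least 1.5-fold lower in all 5. With 2.17% of all genes lower, a count of 0 in a list of this size says little about them. Their medians were -0.42 with ABH4, -0.17 with BH4, -0.07 with CsA, -0.28 with NIL and -0.13 in the untreated allograft. The summed signal was 87867 with ABH4, 103839 with BH4, 107425 with CsA, 93255 with NIL and 104251 in the untreated allograft, against 116738 in the syngraft. Of 13 skeletal muscle genes measured, 8 were above the floor on some array, while Myh1, Myh4, Tnni2, Tnnc2 and Actn3 were at the floor on all 6. The summed signal of the 13, Acta1 among them, was 1957 with ABH4, 2643 with BH4, 3597 with CsA, 2126 with NIL and 2165 in the untreated allograft, against 7744 in the syngraft. How much of the Acta1 and Myl1 signal came from skeletal muscle was not tested.

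Smooth muscle and pericyte genes were at least 1.5-fold lower in all 5 in 6 of 19: Cnn1, Synpo2, Abcc9, Myl9, Tagln and Tpm2. Without CsA 11 of 19 were lower. Over all genes the shares were 2.17% in all 5 and 5.12% without CsA. Synpo2, an actin-bundling protein of the Z-disc, had signals of 278 with ABH4, 366 with BH4, 468 with CsA, 205 with NIL and 225 in the untreated allograft, against 1127 in the syngraft, or 2.41-fold to 5.51-fold lower. Cnn1, calponin of smooth muscle, was at the floor in all 5 allografts, against 96.1 in the syngraft, at least 2.76-fold lower. With the floor at the 50th percentile its nearest difference was -0.21 in place of -1.47. The list's medians were -1.20 with ABH4, -0.89 with BH4, -0.26 with CsA, -1.26 with NIL and -1.46 in the untreated allograft. The next 7 genes at the floor in all 5 allografts, against 71.5 to 92.1 in the syngraft, were at least 2.06-fold to at least 2.65-fold lower, among them Sox14 and the globin gene Ngb. With that higher floor these 7 fell short of 2-fold as well.

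Ndrg4 and Limch1 completed the 12 lower genes of largest nearest difference. Ndrg4, a protein of heart and brain, had signals of 625 with ABH4, 786 with BH4, 859 with CsA, 585 with NIL and 1052 in the untreated allograft, against 2473 in the syngraft, with the untreated allograft nearest to the syngraft. Limch1, an activator of non-muscle myosin, was 2.29-fold to 3.03-fold lower. With the mean over probe sets the nearest difference of Limch1 was -0.87 in place of -1.19, short of 2-fold.

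**Figure D4:**
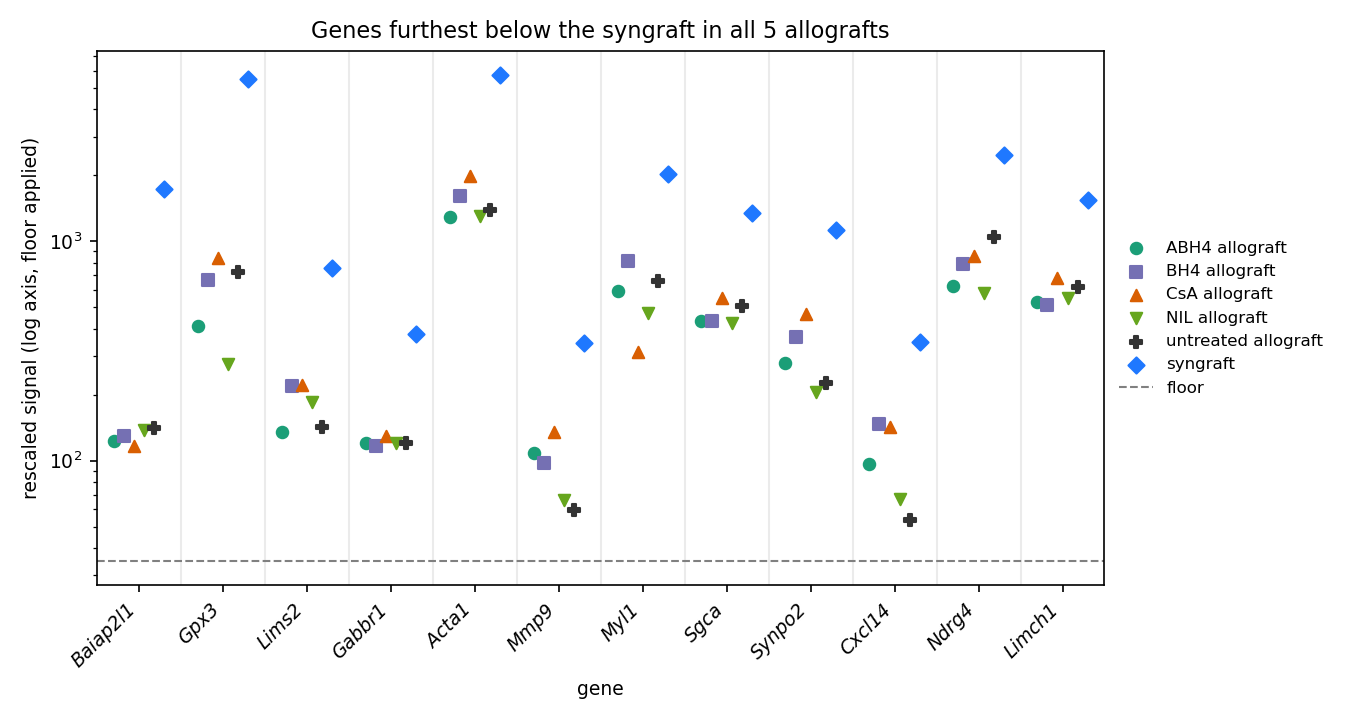
Rescaled signal on a log axis for the 12 lower genes with the largest nearest difference among genes above the floor on all 6 arrays, 1 symbol per array, with the 5 allografts left of the syngraft. Every allograft lies below the syngraft, and the 5 allograft symbols nearly coincide for Baiap2l1 (117 to 141) and Gabbr1 (117 to 129).

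Fibroblast and matrix genes were lower in 4 allografts more than in all 5. Of 21 collagens 1 was at least 1.5-fold lower in all 5, Col11a1, against 10 without CsA. Over all genes 2.17% were lower in all 5 and 5.12% without CsA. Of 40 matrix glycoproteins and proteoglycans 4 were lower in all 5, and 25 without CsA. Fibroblast genes outside the matrix gave 3 of 27, and 15 without CsA. Summed collagen signals were 13235 with ABH4, 24093 with BH4, 31483 with CsA, 8711 with NIL and 9228 in the untreated allograft, against 36846 in the syngraft. The order of the allografts was thus CsA, BH4, ABH4, untreated and NIL from the highest down.

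Pi16, a marker of adventitial fibroblasts, had the largest nearest difference among them. It was at the floor with ABH4, 36.8 with BH4, 149.8 with CsA, at the floor with NIL and 38.2 in the untreated allograft, against 519.9 in the syngraft. Postn, periostin of activated fibroblasts, had 506 with ABH4, 1612 with BH4, 3019 with CsA, 231 with NIL and 219 in the untreated allograft, against 3142 in the syngraft: with CsA it lay within 1.04-fold of the syngraft. Among 21 collagens, 40 matrix glycoproteins and proteoglycans and 27 fibroblast genes outside the matrix, 0 were at least 1.5-fold higher in all 5. Over all genes the share was 3.63%, and a count of 0 in lists of this size says little. Endothelial genes were lower in 3 of 35 (Sox18, Cav1 and the apelin receptor Aplnr), and 14 of 35 without CsA. Over all genes the shares were 2.17% and 5.12%. Pecam1, Cdh5, Tek and Kdr, the markers that define that cell type, did not pass in all 5.

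Some genes differed from the syngraft by several times their spread among the allografts. Besides Cxcl9, Cxcl10, Iigp1, Parp3 and H2-D1 they included Nacc1, a transcriptional regulator, with signals of 210.3 with ABH4, 173 with BH4, 167 with CsA, 213 with NIL and 209.6 in the untreated allograft, against 46.3 in the syngraft, but with the mean over its probe sets its nearest difference was 0.74 in place of 1.85. Tec, a kinase of lymphocyte signalling, had 234 with ABH4, 210.5 with BH4, 226 with CsA, 234 with NIL and 203 in the untreated allograft, against 94.5 in the syngraft, and its nearest difference of 1.11 was 0.92 without rescaling, short of 2-fold. The RNA-binding protein Khdrbs1 had 497 with ABH4, 504 with BH4, 469 with CsA, 454 with NIL and 453 in the untreated allograft, against 222 in the syngraft, and its nearest difference of 1.03 fell short of 2-fold without rescaling (0.84), after quantile normalization (0.81) and with the mean over probe sets (0.38). Parp3, an ADP-ribosyltransferase of DNA repair, had 1944 with ABH4, 2079.9 with BH4, 1435 with CsA, 1863 with NIL and 2191 in the untreated allograft, against 125 in the syngraft, or 11.4-fold to 17.5-fold higher.

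Other genes far from the syngraft were Tubb3, a tubulin best known from neurons, with signals of 463 with ABH4, 530.1 with BH4, 260.2 with CsA, 343 with NIL and 434 in the untreated allograft, against the floor in the syngraft, and BC023105 with 969.9 with ABH4, 1018 with BH4, 762 with CsA, 845 with NIL and 1281 in the untreated allograft, against 61.8 in the syngraft. Both were higher on every allograft array, by at least 7.48-fold to at least 15.2-fold and by 12.3-fold to 20.7-fold.

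Where a single allograft departed from the other 4, it was nearly always CsA. With CsA 176 genes lay under 1.5-fold or on the opposite side while the other 4 were at least 2-fold higher, and 109 while they were at least 2-fold lower. The same counts were 4 and 3 with NIL, 2 and 2 in the untreated allograft, 0 and 1 with ABH4 and 0 and 1 with BH4. The antigen receptor chains led on the higher side. Cd3d had signals of 522 with ABH4, 343 with BH4, at the floor with CsA, 457 with NIL and 495 in the untreated allograft, against the floor in the syngraft, and Cd3e had 375 with ABH4, 259 with BH4, at the floor with CsA, 406 with NIL and 349 in the untreated allograft, against the floor in the syngraft. For Fpr2, a formyl peptide receptor of phagocytes, they were 1047 with ABH4, 899 with BH4, 114 with CsA, 779.8 with NIL and 1043 in the untreated allograft, against 134 in the syngraft. The CsA value was beside the syngraft in each of these 3 genes and the other 4 allografts overlapped neither. The 3 were named because CsA departed from the other 4, so this pattern follows from that choice. Other T cell genes, Cd3g, Cd8a and Lcp2, were at least 1.5-fold higher with CsA too.

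On the lower side CsA stayed with the syngraft for genes that included a collagen and a growth factor. The genes given here were picked by this departure of CsA, so it follows from that choice. Col8a1, a short-chain collagen, had signals of 161 with ABH4, 209.8 with BH4, 1073 with CsA, 117 with NIL and 108 in the untreated allograft, against 1482 in the syngraft. Igf1, insulin-like growth factor, had 69.8 with ABH4, 115 with BH4, 474 with CsA, 41.8 with NIL and at the floor in the untreated allograft, against 484 in the syngraft. Cx3cr1, the fractalkine receptor of resident macrophages, had 35.5 with ABH4, 38.6 with BH4, 195 with CsA, 50.1 with NIL and 42.1 in the untreated allograft, against 166 in the syngraft, so CsA was the highest array of all 6 there.

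Outside CsA such genes were few. They too were picked because a single allograft departed from the others. Zdhhc12, a palmitoyltransferase, had signals of 258 with ABH4, 337 with BH4, 199 with CsA, 77.5 with NIL and 334 in the untreated allograft, against 74.9 in the syngraft, so NIL lay beside the syngraft. For Spata5 and Rps6kb2 NIL was the allograft apart as well. For Iglv1, an immunoglobulin light chain segment, the untreated allograft was nearest, with 159 with ABH4, 74.3 with BH4, 118 with CsA, 134 with NIL and 41.9 in the untreated allograft, against the floor in the syngraft. For Slc16a11 it was the untreated allograft too. On the lower side ABH4 stood apart for Ctrb1 and BH4 for Rtkn.

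**Figure D5:**
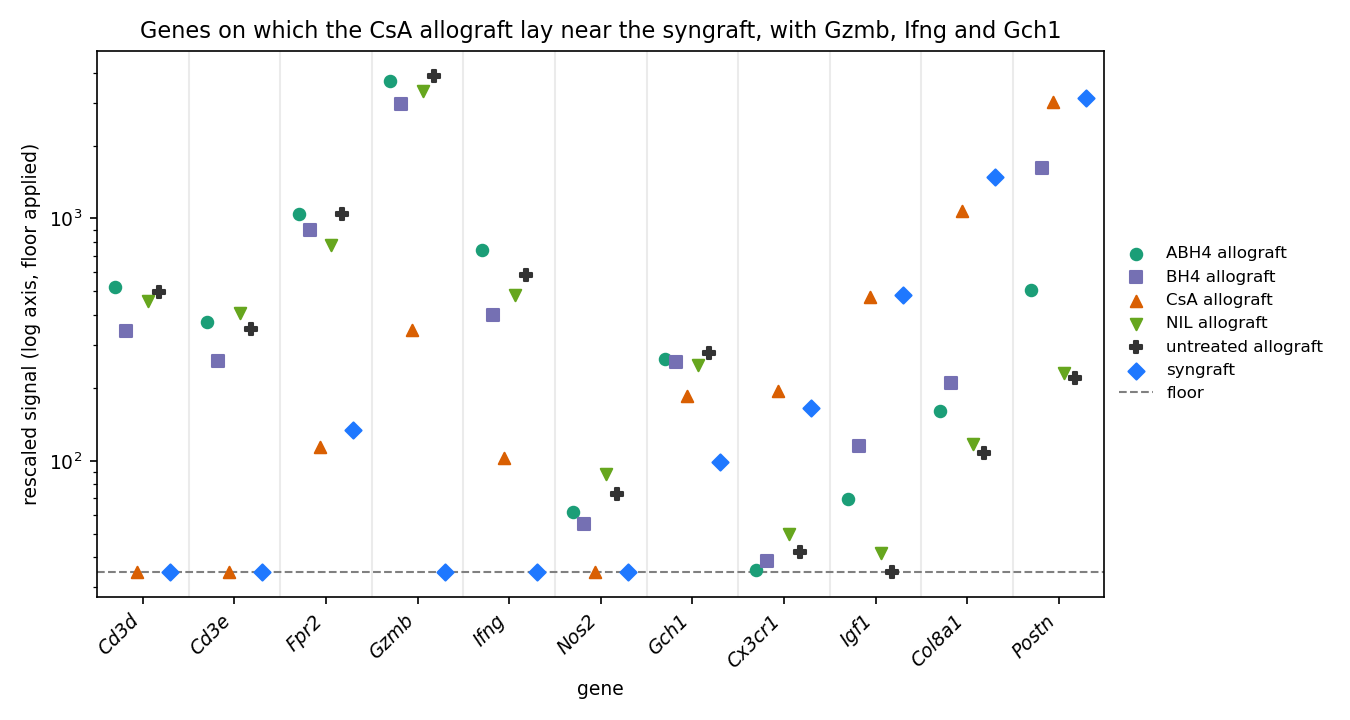
Rescaled signal on a log axis for 11 genes, 1 symbol per array, with the 5 allografts left of the syngraft and values at the floor drawn on it. With CsA, Cd3d and Cd3e are at the floor like the syngraft, while Gzmb, Ifng and Gch1 with CsA lie between the syngraft and the other allografts.

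In the nitric oxide and pteridine pathway 2 of 16 genes were at least 1.5-fold higher in all 5, Gch1 and Arg1. With 3.63% of all genes higher, this count is too small to set apart from that share. Gch1, the enzyme that limits tetrahydrobiopterin synthesis, had signals of 263 with ABH4, 256 with BH4, 185 with CsA, 249 with NIL and 279 in the untreated allograft, against 99.2 in the syngraft, or 1.87-fold to 2.81-fold higher. Nos2, inducible nitric oxide synthase, had 61.3 with ABH4, 54.7 with BH4, at the floor with CsA, 88.0 with NIL and 73.2 in the untreated allograft, against the floor in the syngraft. The 4 allografts above the floor were at least 1.57-fold to at least 2.53-fold above the syngraft, and the low signal limits what can be said of Nos2. The other synthases and the later pteridine enzymes Pts, Spr and Qdpr did not pass in all 5.

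No gene of the respiratory chain or of cardiac calcium handling was past 1.5-fold in all 5 allografts. Of 38 genes of the respiratory chain, ATP synthase and citrate cycle 0 were at least 1.5-fold higher or lower in all 5, with medians of -0.36 with ABH4, -0.13 with BH4, -0.15 with CsA, -0.37 with NIL and -0.11 in the untreated allograft. Calcium handling, channel and peptide genes passed in 0 of 21 in either direction. With the share over all genes at 2.17% on the lower side, a count of 0 in lists of this size says little about them. The calcium handling list had medians of -0.44 with ABH4, -0.18 with BH4, -0.12 with CsA, -0.44 with NIL and -0.17 in the untreated allograft, and 6 of its 21 genes were at least 1.5-fold lower with ABH4 (12.8% of all genes) and 7 with NIL (11.4% of all genes). The atrial natriuretic peptide Nppa had 7143 with ABH4, 8369.9 with BH4, 8360.3 with CsA, 8001 with NIL and 8594 in the untreated allograft, against 9483 in the syngraft, close to the highest signals of the arrays (8819 to 10669 as deposited). Pdk4, which shuts glucose carbon out of the citrate cycle, was the 1 of 28 fatty acid oxidation and uptake genes that passed, with 862 with ABH4, 1183 with BH4, 456 with CsA, 1149 with NIL and 1398 in the untreated allograft, against 205 in the syngraft. That count is near the 3.63% of all genes at least 1.5-fold higher in all 5, so it says nothing of the list. Of 16 glycolysis genes Eno3 and the insulin-responsive glucose transporter Slc2a4 were at least 1.5-fold lower in all 5. Beside the 2.17% of all genes this count is too small to set apart.

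Cell cycle genes passed in 2 of 30 (Aurkb and Ube2c), near the 3.63% of all genes, and in 13 of 30 without CsA, against 8.13% of all genes. Lysosomal cathepsins passed in 1 of 16 (Ctsh), a count too small to set apart from the share of all genes. Nerve and glia gave 0 of 11, and erythroid and platelet genes 0 of 12. Adipose genes gave 1 of 12, Slc2a4 again, on the lower side. Krt18, a keratin, was the 1 epithelial gene higher in all 5, with 102 with ABH4, 263 with BH4, 162 with CsA, 212 with NIL and 129 in the untreated allograft, against the floor in the syngraft. It was highest on the BH4 array with the salivary transcripts, and the other 4 allografts alone were at least 2.92-fold higher too. With the floor at the 50th percentile the nearest difference of Krt18 was 0.29 in place of 1.55, short of 2-fold. Of 12 housekeeping genes 0 passed in either direction. Their medians were 0.09 with ABH4, 0.22 with BH4, 0.01 with CsA, -0.03 with NIL and 0.13 in the untreated allograft. The share over the whole array was 3.63% on the higher side and 2.17% on the lower side. Counts of 0 or 1 in lists this short, housekeeping included, cannot be told apart from those shares.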

How the data were processed

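The deposited table held 1 signal intensity per probe set and array, linear and already scaled by the authors: the trimmed mean of each array was 200.1. Per the labels, total RNA was used; scanner software, summarisation and background correction are not given in the sources used here. Of 22690 probe sets, 64 controls were left out. The other 22626 were brought to one median per array, the mean of the 6 array medians, which moved arrays by -0.09 to 0.10 (log2). Signals below the 30th percentile (34.8, log2 of 5.12) took that floor value, including 3 deposited values at or below 0, and log2 was taken. A gene took its brightest probe set among the 20380 that GEO's platform annotation gives 1 symbol; 20351 of these had their gene ID in the RefSeq table. The 691 probe sets with several genes and the 1555 with none were not named. Python 3.11.15, numpy 2.4.6, pandas 2.3.3 and matplotlib 3.10.9 were used, and the counting was checked on simulated data: shifts well above 2-fold were nearly all called, but part of those shifted between 2-fold and 3-fold were missed, so the counts can miss differences of that size.

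With 1 array per group no test was possible and no p-value is given. Genes were named by rule: the 12 largest nearest differences in each direction above the floor on all 6 arrays, without probe sets of opposite sign; the 8 largest bounds; up to 4 members per list at least 2-fold in all 5; the 8 largest ratios of nearest difference to spread; up to 3 genes per direction for which 1 allograft departed from the other 4; and Nos2, Gch1, Ifng, Gzmb, Cxcl9, Nppa, Myh6 and Postn. The 12 also had to lie above the array median on at least 1 array. Other genes named were chosen after their values were seen. The members and the 43 lists were chosen with earlier results of these data known. Alternatives were no rescaling, quantile normalization, floors at the 10th and 50th percentile, the mean over probe sets, genes above the floor on every array, and leaving out each allograft.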

Additional observations from a re-analysis of the deposited data

Results flagged for a closer look

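Probe sets that name several genes or none entered no comparison above, and some of them differed all the same. Of 2246 such probe sets, 29 (1.29%) were at least 2-fold higher in all 5 allografts, with a largest nearest difference of 3.17, and 8 (0.356%) were at least 2-fold lower, with a largest nearest difference of -1.76. They are counted only, since no single gene can be given to them.

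Ifitm1, an interferon-induced membrane protein, lay on opposite sides in different allografts. Its signals were 906 with ABH4, 580.4 with BH4, 109.8 with CsA, 809.9 with NIL and 673 in the untreated allograft, against 284 in the syngraft. The CsA difference was -1.37 while the other 4 allografts lay above the syngraft. The difference between the allografts was not tested, because each has 1 array.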

How the results depend on the processing

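The floor and the CsA allograft moved the counts most. The main counts in all 5 allografts were 164 higher and 50 lower at 2-fold, 450 and 269 at 1.5-fold, and 123 and 44 with the nearest difference over the spread. With the 10th percentile as the floor they were 320 higher and 166 lower at 2-fold, 486 lower at 1.5-fold, and 245 and 114 over the spread. With the 50th percentile there were 27 lower at 2-fold, 279 higher and 143 lower at 1.5-fold, and 25 lower over the spread. With only genes above the floor on every array, 20 were lower at 2-fold and 140 at 1.5-fold. Leaving out 1 allograft at a time gave 166 to 461 higher and 52 to 210 lower at 2-fold, 462 to 1008 and 285 to 634 at 1.5-fold, and 128 to 453 and 47 to 180 over the spread; the highest of each range came without CsA. The other alternatives, no rescaling, quantile normalization and the mean over probe sets, kept all of these counts within 1.5 times. Pdxdc1 turned from -1.28 to 0.10 in its nearest difference with the mean over probe sets, since its probe sets lie on opposite sides. Of the 81 named genes past 2-fold in all 5, 27 fell short of 2-fold under at least 1 alternative that kept all 5 allografts: 16 with the floor at the 50th percentile, among them Acod1, Ifng, Il15 and Nkg7, 12 with the mean over probe sets, among them Tap1, Nacc1, Gabbr1, Il1rn and Srxn1, 3 without rescaling (Jchain, Khdrbs1 and Tec) and 2 after quantile normalization (Jchain and Khdrbs1). Under these alternatives 464 values of named genes moved by no more than the spread of the 5 allografts and 55 by more, and 425 and 5 list medians did. Leaving out an allograft cannot move a gene's nearest difference by more than that spread, so those values are not counted. Values near the floor limit what low genes can show. No paired analysis was possible because each group had 1 array.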

Other observations

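Pdxdc1 was the 1 gene, of 4956 with more than 1 probe set, with a probe set at least 2-fold lower and another at least 2-fold higher in all 5 allografts. The lower probe set had signals of 186 with ABH4, 178 with BH4, 144 with CsA, 225 with NIL and 175 in the untreated allograft, against 548 in the syngraft. The higher one had 182 with ABH4, 194 with BH4, 289 with CsA, 160.2 with NIL and 174 in the untreated allograft, against the floor in the syngraft. In both, the 5 allografts lay together on one side, by 2.43-fold to 3.80-fold below and by at least 4.61-fold to at least 8.30-fold above. The other probe sets of Pdxdc1 gave differences of -0.31 to 0.69 and of -0.23 to 0.29. The cause of the opposite signs was not tested.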
